A study of Mus musculus with 40 samples.

Results

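Mature neutrophils carry receptors that read growth factors and signs of infection, and enzymes that make or clear lipid signals and cut matrix. The 8 genes described here are of that kind, apart from Gda, an enzyme that acts on guanine. They are the receptors Csf3r, Fpr2, Trem1 and Clec4e and the enzymes Lta4h, Cyp4f18, Mmp9 and Gda. They were chosen by name on the basis of their measured log2 ratios in the 4 groups of mice, with results of these contrasts known, and every array probe annotated to 1 of these symbols was taken. All 8 were measured in at least 3 mice of every group and so were among the 5297 genes and unnamed probes that could be tested, of 13027 on the array. Each of the 8 rested on 1 probe with values. A second Mmp9 probe had no value on any array.

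The samples were bone marrow cells of DBA/2 mice, an inbred strain, in 4 groups of 5 mice. Control mice were untreated, and the other groups received a single agent, cyclophosphamide, at 83 mg/kg into the peritoneal cavity, with marrow taken after 1, 2 or 5 days. Cyclophosphamide is a prodrug whose metabolites cross-link DNA. The labels give no age or sex and name no sorting of the cells. Each mouse was hybridised on 2 arrays in Cy5 against a Cy3-labelled pool of marrow, which the labels call untreated although its treatment field names the drug, so the sign of a single ratio depends on what the pool was while differences between groups do not. Values below are log2 ratios of mouse over pool, averaged over the arrays of a mouse, and differences between groups are given with the standard error of a limma model fitted over all features. The base of the logarithm is assumed to be 2.

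Neutrophils mature in the marrow over days, from dividing precursors that fill the first granules to cells that no longer divide, load the later granules and take up receptors for chemotaxis. Csf3r is the receptor for G-CSF, the growth factor that drives this line. Fpr2 is a receptor for formylated and other peptides that attract neutrophils. Trem1, which signals through the adaptor DAP12, amplifies inflammatory responses, and Clec4e (Mincle), which signals through the Fc receptor gamma chain, binds microbial glycolipids and a protein of dead cells. Lta4h makes leukotriene B4, a strong attractant of neutrophils, and mouse Cyp4f18 oxidises and so inactivates it. Mmp9 is the gelatinase of the tertiary granules, and Gda is guanine deaminase, which turns guanine into xanthine. Monocytes also use Fpr2, Trem1, Clec4e and Mmp9, and Lta4h is found in many cell types. In bulk marrow, fewer cells of a type and less RNA per cell cannot be told apart.

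Promoters are shown for Cyp4f18 and Csf3r, whose day 5 mice stood below all control mice, for Lta4h, the member highest on day 5, and for Clec4e, which holds a match to a motif of granulocyte transcription factors. The sequences are from RefSeq (GRCm38.p6), 250 bases before the annotated start, 5′ to 3′ on the strand of the gene, with a match to the C/EBP motif TTGCNNAA, on either strand, in capitals.
Cyp4f18, chr8:72009627-72009876, minus strand: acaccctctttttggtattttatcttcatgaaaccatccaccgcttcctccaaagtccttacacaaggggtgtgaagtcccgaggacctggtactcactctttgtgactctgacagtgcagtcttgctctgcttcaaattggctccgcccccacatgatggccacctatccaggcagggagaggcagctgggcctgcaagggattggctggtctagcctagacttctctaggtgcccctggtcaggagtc
Csf3r, chr4:126024409-126024658, plus strand: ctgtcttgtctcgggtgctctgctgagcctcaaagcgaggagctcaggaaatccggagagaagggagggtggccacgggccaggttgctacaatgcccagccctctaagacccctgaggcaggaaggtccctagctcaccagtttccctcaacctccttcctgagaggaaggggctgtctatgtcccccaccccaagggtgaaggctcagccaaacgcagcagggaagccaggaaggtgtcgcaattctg
Lta4h, chr10:93453146-93453395, plus strand: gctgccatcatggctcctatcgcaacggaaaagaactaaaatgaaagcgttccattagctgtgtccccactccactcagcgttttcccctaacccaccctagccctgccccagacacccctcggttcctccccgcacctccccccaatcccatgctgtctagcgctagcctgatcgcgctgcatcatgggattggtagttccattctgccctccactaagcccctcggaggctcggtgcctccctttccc
Clec4e, chr6:123289872-123290121, minus strand: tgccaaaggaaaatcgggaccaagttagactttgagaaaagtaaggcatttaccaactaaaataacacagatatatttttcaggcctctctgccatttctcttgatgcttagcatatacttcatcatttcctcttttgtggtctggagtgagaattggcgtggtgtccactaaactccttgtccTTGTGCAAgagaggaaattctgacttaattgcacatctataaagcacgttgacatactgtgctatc
Of the 7 members in the table, only Clec4e and Gda held that motif in this window, and 9.55% of 27025 promoters did. In Clec4e the match lay 66 to 59 bases before the start, on the opposite strand. None of the 7 held the PU.1 motif GAGGAAGT on either strand, which 2.44% of promoters held. A match is a description of the letters and not a binding site.

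**Figure D1:**
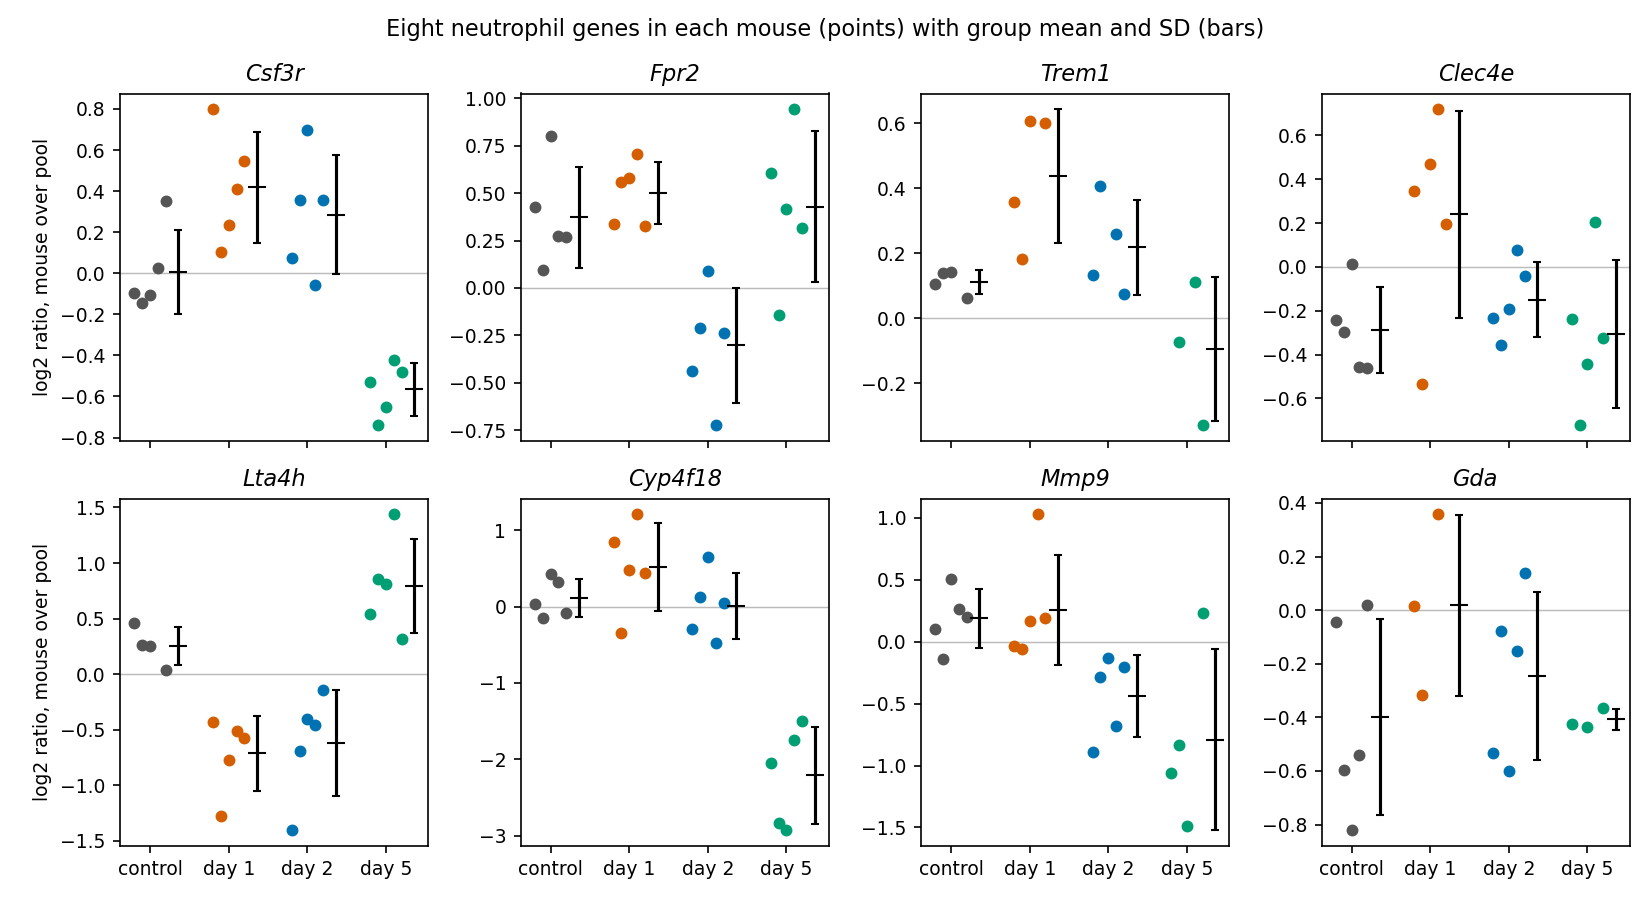
Log2 ratio of mouse over pool (vertical axis, a scale per panel) for each of the 8 genes in control, day 1, day 2 and day 5 mice. Points are mice in the order of their numbers, from left to right, and black bars are the group mean and SD over the mice measured. Cyp4f18 stood between -2.93 and -1.5 on day 5 and at or above -0.48 in every other mouse, while Lta4h was below 0 on days 1 and 2 and above 0 on day 5.

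Csf3r was above the control mean on day 1 and below all control mice on day 5. In control mice 1 to 5 its log2 ratio was -0.10, -0.14, -0.10, 0.02 and 0.35. The same values were 0.80, 0.10, 0.24, 0.41 and 0.55 on day 1 and 0.07, 0.36, 0.70, -0.06 and 0.36 on day 2. They were -0.53, -0.74, -0.65, -0.42 and -0.48 on day 5. Control mouse 5 stood inside the day 1 range, and no day 5 mouse reached the lowest mouse of any other group. The mean was 0.0063 ± 0.20 (SD, n = 5) in control and -0.56 ± 0.13 (n = 5) on day 5. Csf3r thus differed from control by 0.41 ± 0.14 (SE) on day 1, 0.28 ± 0.14 on day 2 and -0.57 ± 0.14 on day 5. From day 2 to day 5 the difference was -0.85 ± 0.14. In the order day 1, day 2, control and day 5, only control and day 5 did not overlap as neighbours.

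Fpr2 was low on day 2 and near control on the other days. Control mice stood at 0.43, 0.09, 0.80, 0.27 and 0.27, and day 1 mice at 0.34, 0.56, 0.58, 0.71 and 0.33. Day 2 mice stood at -0.44, -0.21, 0.09, -0.72 and -0.24. Day 5 mice stood at 0.61, -0.14, 0.42, 0.94 and 0.32. All 5 day 2 mice were below the lowest control mouse, although day 2 mouse 3 and control mouse 2 were within 0.01 of each other, while 4 of 5 day 5 mice were within or above the control range. The difference from control was 0.13 ± 0.17 on day 1, -0.68 ± 0.17 on day 2 and 0.06 ± 0.17 on day 5. Between days it was -0.81 ± 0.17 for day 2 against day 1 and 0.73 ± 0.17 for day 5 against day 2. Day 2 was the only group that separated from its neighbour in the order of means.

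Trem1 and Clec4e, the receptors that signal through DAP12 and the Fc receptor gamma chain, had their highest mean on day 1. For Trem1 only 15 of 20 mice had a value. Its 4 control mice lay between 0.06 and 0.14, its 4 day 1 mice between 0.18 and 0.61, its 4 day 2 mice between 0.08 and 0.41 and its 3 day 5 mice between -0.33 and 0.11. The day 1 mice did not overlap with control, at a difference of 0.33 ± 0.13. On day 2 the Trem1 difference was 0.11 ± 0.13 and on day 5 it was -0.21 ± 0.14, both with overlapping mice. Clec4e stood at 0.35, -0.54, 0.47, 0.72 and 0.19 on day 1, against -0.24, -0.30, 0.01, -0.46 and -0.46 in control. Day 1 mouse 2 was thus below every control mouse and the other 4 were above all of them. The Clec4e difference from control was 0.53 ± 0.18 on day 1, 0.14 ± 0.18 on day 2 and -0.02 ± 0.18 on day 5. No pair of neighbours in the order of means was separate for either gene.

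Lta4h, which makes leukotriene B4, was low on days 1 and 2 and had its highest mean on day 5. Its 4 measured control mice stood at 0.46, 0.26, 0.26 and 0.04. Day 1 mice stood at -0.43, -1.27, -0.77, -0.51 and -0.58 and day 2 mice at -1.40, -0.69, -0.40, -0.46 and -0.14. Day 5 mice stood at 0.54, 0.85, 0.81, 1.44 and 0.32. All 10 mice of days 1 and 2 were below every control mouse, and all 5 day 5 mice were above the control mean, with mouse 5 inside the control range. The difference from control was -0.97 ± 0.22 on day 1, -0.87 ± 0.22 on day 2 and 0.54 ± 0.22 on day 5. From day 2 to day 5 the Lta4h difference was 1.41 ± 0.21, a ratio of 2.66, or of 4.10 if the logarithms are natural.

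Cyp4f18, which inactivates leukotriene B4, overlapped with control on days 1 and 2 and lay far below it on day 5. Control mice stood at 0.04, -0.15, 0.43, 0.32 and -0.09. Day 1 mice stood at 0.84, -0.34, 0.47, 1.21 and 0.43, and day 2 mice at -0.30, 0.12, 0.65, -0.48 and 0.05. Day 5 mice stood at -2.05, -2.83, -2.93, -1.75 and -1.5. The highest day 5 mouse was more than 1 log2 unit below the lowest of the other 15 mice. The mean was 0.11 ± 0.25 (SD, n = 5) in control and -2.21 ± 0.64 (n = 5) on day 5. The difference from control was 0.41 ± 0.27 on day 1, -0.10 ± 0.27 on day 2 and -2.32 ± 0.27 on day 5. Its day 5 level was thus 5.00-fold lower, or 10.2-fold lower if the logarithms are natural. Among the 5297 features that difference ranked 2 from the lowest, where Mmp9 ranked 36 and Csf3r 103. With quantile normalization between arrays it was -1.82.

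**Figure D2:**
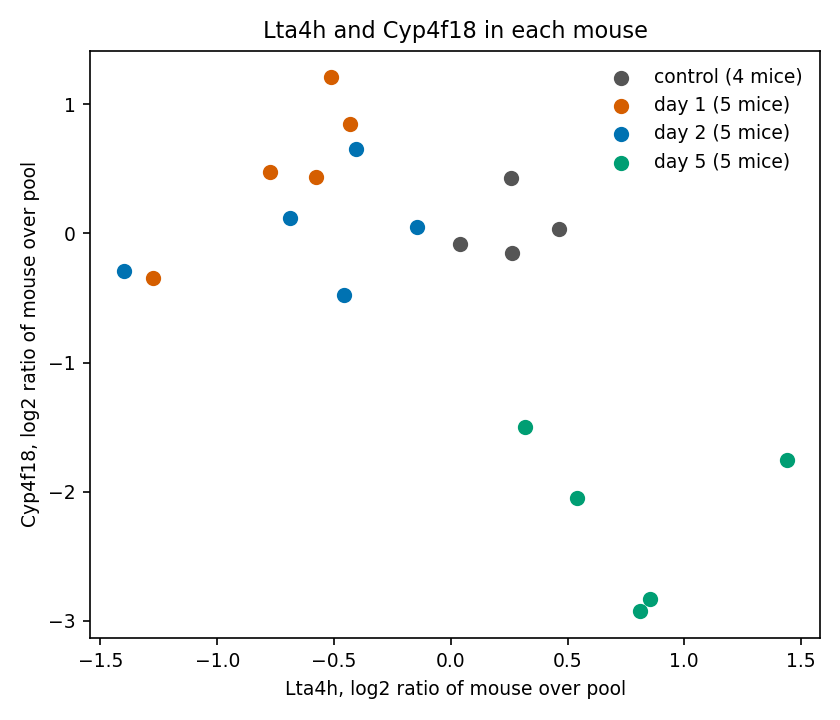
Log2 ratio of Lta4h (horizontal axis) against that of Cyp4f18 (vertical axis) in the 19 mice with both values, coloured by group. Day 1 and day 2 mice lie to the left, with Lta4h below 0, and the 5 day 5 mice lie at the lower right, with Lta4h between 0.32 and 1.44 and Cyp4f18 at or below -1.5.

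Mmp9 stood lower on days 2 and 5, with a wide spread on day 5. Control mice stood at 0.10, -0.14, 0.51, 0.27 and 0.20. Day 1 mice stood at -0.04, -0.06, 0.16, 1.03 and 0.19 and day 2 mice at -0.89, -0.28, -0.14, -0.68 and -0.20. The 4 measured day 5 mice stood at -1.06, -0.84, -1.49 and 0.23. Day 5 mouse 5, at 0.23, was inside the control range and the other 3 were below all control mice. All 5 day 2 mice were below the control mean, although day 2 mouse 3 overlapped with control mouse 2. The difference from control was 0.070 ± 0.24 on day 1, -0.62 ± 0.24 on day 2 and -0.98 ± 0.26 on day 5. Without day 5 mouse 5 the last was -1.32, and the difference of day 5 from day 2 was -0.69 in place of -0.35.

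Gda overlapped with control in every group and was often blank. Its control mice lay between -0.82 and 0.02, its 3 measured day 1 mice between -0.32 and 0.36, its day 2 mice between -0.60 and 0.14 and its 3 measured day 5 mice between -0.43 and -0.36. The Gda difference from control was 0.42 ± 0.20 on day 1, 0.15 ± 0.17 on day 2 and -0.01 ± 0.20 on day 5.

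**Figure D3:**
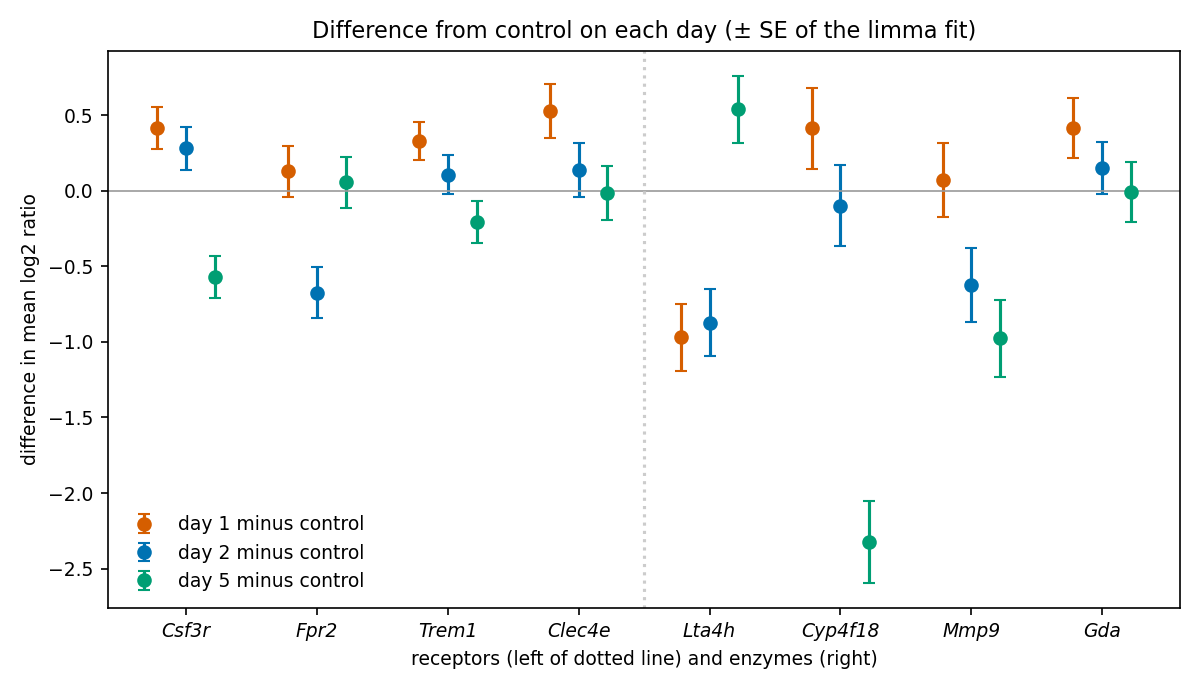
Difference in mean log2 ratio from control (vertical axis) for the 4 receptors and the 4 enzymes on days 1, 2 and 5, with bars of ± 1 SE from the limma fit and 3 to 5 mice per group. On day 5 Cyp4f18 stood at -2.32 and Lta4h at 0.54, while Trem1, Clec4e, Gda and Fpr2 lay between -0.21 and 0.06. The days share the same control mice.

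On day 1, 7 of the 8 had a mean above control and Lta4h was below it, on day 2 it was 4 above and 4 below, and on day 5 it was 2 above and 6 below. The median member difference was 0.37, 0.0032 and -0.11 on days 1, 2 and 5, beside a median over all features of -0.01, -0.02 and 0.0078. Mice of the groups did not overlap for 2 members on day 1 (Trem1 above, Lta4h below), where 13% of all features did not overlap (6.95% above, 6.1% below), for 2 on day 2 (Fpr2 and Lta4h below, against 19% of all features and 9.4% below) and for 2 on day 5 (Csf3r and Cyp4f18 below, against 6.34% of all and 3.21% below). Since the members were chosen with these results in view, the counts are a description and nothing is read from them.

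The same holds for the calls of the limma fit at an adjusted p under 0.05. On day 1 it called Csf3r and Clec4e higher and Lta4h lower (3 of 8, where 19.1% of all features were called, 10.7% higher and 8.38% lower). On day 2 it called Fpr2 and Lta4h lower (2 of 8, against 19.2%, 9.61% lower), and on day 5 Csf3r, Cyp4f18 and Mmp9 lower (3 of 8, against 2.62%, 1.72% lower). From day 2 to day 5 it called Fpr2 and Lta4h higher and Csf3r and Cyp4f18 lower (4 of 8, against 20.8%, 10.3% higher and 10.5% lower). The calls on Lta4h, Fpr2 and Cyp4f18 were made under each of the 32 alternative settings as well, and so were those from day 2 to day 5. The day 1 call on Csf3r was lost without control mouse 1, 2, 3 or 4 or without day 1 mouse 1, 4 or 5 (differences of 0.32 to 0.42). The day 1 call on Clec4e was lost without control mouse 1, 2, 4 or 5 or without day 1 mouse 1, 3, 4 or 5 (0.41 to 0.54). On day 5 the call on Csf3r was lost without control mouse 4 or 5 or day 5 mouse 2 or 3 (-0.57 to -0.48). The day 5 call on Mmp9 was lost without control mouse 1, 3, 4 or 5 or day 5 mouse 1, 2 or 3 (-1.0 to -0.75). Calls that were gained were those on Trem1 on day 1 without day 1 mouse 2 (0.41), on Mmp9 on day 2 without day 1 mouse 4 or day 5 mouse 5 (-0.62 in both, as in the full fit), and on Mmp9 from day 2 to day 5 without day 5 mouse 5 (-0.69).

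Some mice were high or low in several members at a time. Day 1 mouse 2 was the lowest of its group in 6 of the 7 members with at least 4 measured mice, all but Fpr2. Day 1 mouse 4 was the highest in Fpr2, Clec4e, Cyp4f18 and Mmp9, control mouse 3 in 5 of 8, and day 5 mouse 4 in 4 of 6. The 2 arrays of a mouse differed by a median of 0.047 (Csf3r) to 0.13 (Gda), below the SD between mice of a group of 0.17 (Trem1) to 0.50 (Cyp4f18). The SD between mice thus exceeded the median difference between arrays for each member. The largest difference between arrays was above that SD in all but Lta4h (0.34 against 0.37) and Cyp4f18 (0.47 against 0.50). It reached 0.77 for Gda, against an SD of 0.29, and 0.47 for Trem1, against 0.17. Both arrays had a value in 15 mice for Gda and 12 for Trem1.

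The marrow around these genes changed too. The list counts below stand beside 19.1% of all features called on day 1, 19.2% on day 2 and 2.62% on day 5. Called lower were 8.38%, 9.61% and 1.72% of all features on those days. For a list of 6 measured genes of late neutrophil granules (such as Ltf, Cd177 and S100a9), 6 of 6 fell on day 2 and 0 of 6 passed in either direction on days 1 and 5. The day 2 call on Hp was lost without control mouse 3 (-0.66) or day 2 mouse 1 (-0.67), and S100a9 had values in 3 day 2 mice. The mean of that list, with each gene centred on its own mean, ranged over mice from 0.15 to 0.67 in control, -0.34 to 0.56 on day 1, -1.39 to -0.86 on day 2 and 0.41 to 0.82 on day 5. Csf3r and Cyp4f18 overlapped with control on day 2, when the granule genes were low, and stood below all control mice on day 5, when no granule gene passed. Fpr2 and Lta4h stood below all control mice on day 2, as the granule genes fell, and overlapped with control on day 5. Lta4h was below all control mice on day 1 too. The other members overlapped with control on days 2 and 5. For 4 genes of granulocyte precursors the list mean ranged from -0.15 to 0.13 in control, -1.06 to -0.32 on day 1, -0.23 to 0.13 on day 2 and 0.40 to 1.09 on day 5, and 2 of 4 fell on day 1 and 2 of 4 rose on day 5. Of the latter, the call on Cst7 was lost without control mouse 4 (0.66), which leaves 1 of 4. For 4 monocyte genes it ranged from -0.07 to 0.44 in control and from -0.58 to -0.22 on day 1, below all control mice, with F13a1 and Ms4a6c lower. On day 2 the monocyte list ranged from -0.66 to -0.10, with Cybb lower (-1.11 ± 0.23) and the other 3 genes not called. F13a1 was then at -0.19 ± 0.11 and Ms4a6c at -0.24 ± 0.14, so the low day 2 level rested largely on Cybb. Cybb had not been called on day 1 (-0.39 ± 0.24), and which cells its day 2 change came from was not tested. On day 5 the list ranged from 0.50 to 0.67, with F13a1 and Ms4a6c higher and Cybb at -0.10 ± 0.24. The day 5 call on Ms4a6c was lost without control mouse 5 or day 5 mouse 3, which leaves 1 of 4, and its difference was 0.35 with quantile normalization in place of 0.62. For 5 macrophage genes the list mean ranged from -0.71 to -0.10 in control and from 0.05 to 0.50 on day 1. C1qb and Adgre1 were then called higher. Day 2 mice ranged from 0.34 to 1.10, with 5 of 5 genes higher. Day 5 mice ranged from -0.94 to -0.48, with 0 of 5 genes called. The B cell list ranged from 0.32 to 0.66 in control, 0.08 to 0.55 on day 1 and -0.11 to 0.015 on day 2. Vpreb1 and Vpreb3 were called lower and Cd22 higher on both days. The day 2 call on Cd22 was lost on leaving out any of 10 mice. On day 5 the B cell list ranged from -1.16 to -0.37, with 4 of 5 lower. Over 8 erythroid genes the list mean ranged from 0.13 to 0.32 in control and from -0.31 to 0.29 on day 1. It ranged from -0.38 to -0.14 on day 2 and from -0.88 to 0.30 on day 5. Alas2 was called higher and Icam4 lower on day 1, and Icam4, Kel, Ank1 and Rhd were called lower on day 2. Leaving out any of 4 mice ended the day 1 call on Icam4, and any of 3 mice the day 2 call on Rhd. Of the 8 genes 0 passed on day 5. The part of these shifts in the values of the 8 members was not tested.

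**Figure D4:**
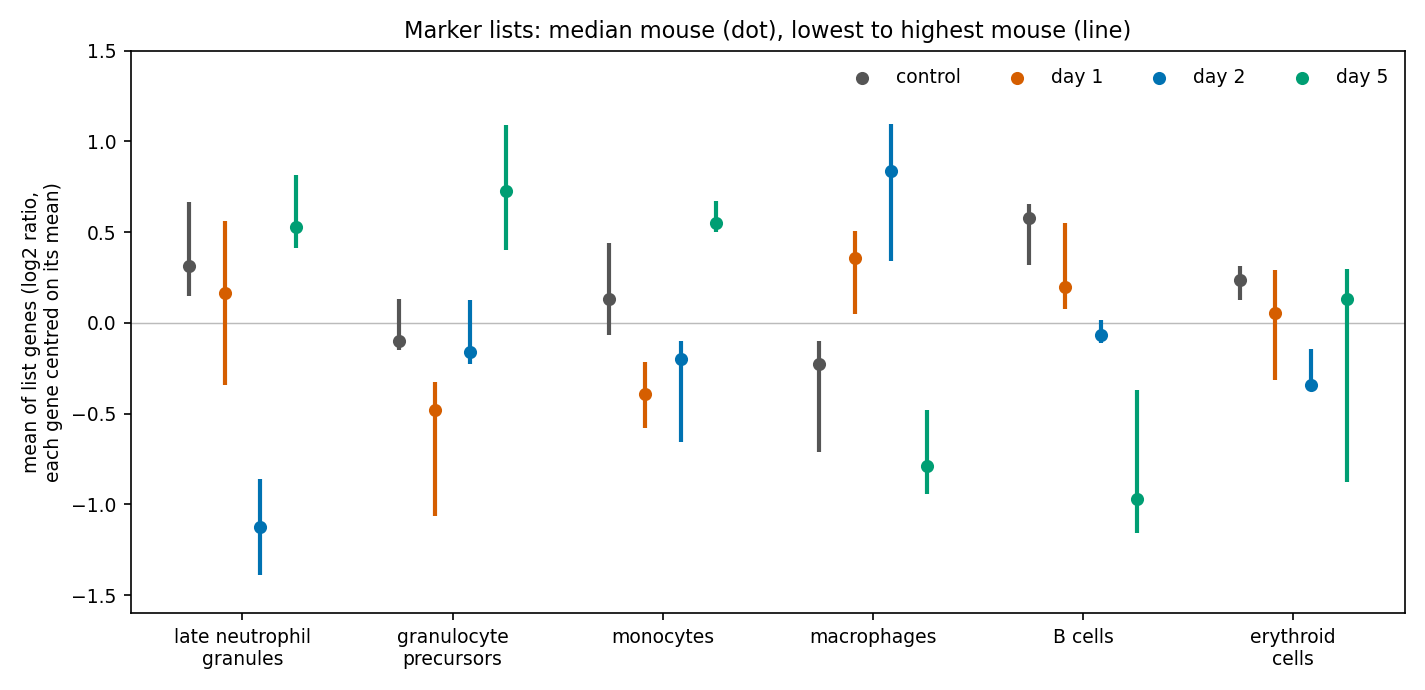
Mean of the measured genes of 6 marker lists (vertical axis, log2 ratio with each gene centred on its own mean over mice) in control, day 1, day 2 and day 5 mice. Dots are the median mouse and lines run from the lowest to the highest of 5 mice. The late granule list lies lowest on day 2, between -1.39 and -0.86, and the precursor list highest on day 5, between 0.40 and 1.09.

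Around Lta4h and Cyp4f18, 7 of 26 other genes of the leukotriene pathway were measured well enough. On day 1, 1 of the 7 rose and 2 fell, on day 2 none rose and 3 fell, and on day 5, 1 rose and none fell, with list medians of 0.03, -0.16 and 0.14. Of all features 19.1%, 19.2% and 2.62% were called on those days, 8.38%, 9.61% and 1.72% lower. Alox5ap, which presents arachidonic acid to 5-lipoxygenase, fell on day 2 by 0.73 ± 0.19 (5 of 5 mice below the control mean, limma adjusted p = 0.0107) and was at 0.03 ± 0.19 on days 1 and 5. Its day 2 differences under the alternatives ran from -0.82 to -0.65. Mgst3, a microsomal glutathione transferase, changed by -1.26 ± 0.25 on day 1 and -2.0 ± 0.25 on day 2 (limma adjusted p = 0.00188 and 1.51e-05, 5 of 5 mice lower on each). Of 8 measured erythroid genes 4 fell on day 2 too. Day 5 mouse 4 was the lowest of its group in Mgst3 (-1.78) and in the mean of the erythroid list (-0.88). Which cells the Mgst3 change came from was not tested. The remaining calls were those of Gpx4, lower on both days, Ltc4s, higher on day 1, and Pla2g4a, which frees arachidonic acid, at 0.54 ± 0.14 on day 5 (limma adjusted p = 0.0321, 5 of 5 mice higher). The calls on Ltc4s and Pla2g4a were each lost on leaving out single mice (5 and 7 of the mice in turn), and that of Gpx4 on day 2 without day 2 mouse 1 (-0.40). Cyp4f16, a relative of Cyp4f18, was at 0.20 ± 0.12 on day 5 (limma adjusted p = 0.626).

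Genes listed as acting with or downstream of the receptors were measured in part. The counts below stand beside 19.1%, 19.2% and 2.62% of all features called on days 1, 2 and 5. The shares called lower were 8.38%, 9.61% and 1.72%. Of 27 genes of G-CSF receptor signalling and granulocyte transcription factors 7 were measured, and 0 of 7 passed on days 1, 2 and 5, with Stat3, the main mediator of the receptor, at 0.28 ± 0.13 on day 2 (limma adjusted p = 0.124) and -0.02 ± 0.13 on day 5 (adjusted p = 0.981). Of 17 genes listed for signalling through DAP12 and the Fc receptor gamma chain, the partners of Trem1 and Clec4e, 8 were measured, among them a further receptor. Of these 1 fell on day 1, 1 rose and 1 fell on day 2, and 1 rose and 1 fell on day 5. Whether each listed gene carries signals of Trem1 or Clec4e in these cells was not tested. The kinase Syk, on which Trem1 and Clec4e both depend, fell on day 5 by 0.55 ± 0.11 (5 of 5 mice lower, 4 control mice, limma adjusted p = 0.0068). The adaptor Lat2 rose on day 2 by 0.57 ± 0.11 (5 of 5 mice higher, limma adjusted p = 0.00107). On day 5 Lat2 was at 0.42 ± 0.11 (5 of 5 mice higher, limma adjusted p = 0.0308), a call lost on leaving out any of 7 mice. The adaptor Sh2b1 was at -0.53 ± 0.16 on day 1 and -0.48 ± 0.16 on day 2 (limma adjusted p = 0.0224 and 0.0358, 5 of 5 mice lower on each), calls lost on leaving out any of 3 and of 5 mice. Tyrobp, which encodes DAP12, the partner of Trem1, was at -0.33 ± 0.19, -0.40 ± 0.19 and -0.21 ± 0.19 on days 1, 2 and 5 and did not pass (limma adjusted p = 0.238, 0.146 and 0.833). Of 38 other surface receptors of neutrophils 8 were measured, of which 0 passed on days 1 and 5 and 3 fell on day 2. These were Cd177, which the granule list also holds, Cxcr4, which retains neutrophils in the marrow, and Trem3, a relative of Trem1. Without control mouse 4 or day 2 mouse 1 or 3 the calls on Cxcr4 and Trem3 were both lost, which leaves 1 of 8. The Cxcr4 difference was -0.63 ± 0.20 on day 2, -0.33 with quantile normalization and -0.39 with each probe on its own. Among 3 measured genes of purine salvage and breakdown, the pathway of Gda, the nucleotidase Nt5c2 fell by 0.59 ± 0.14 on day 1 and 0.63 ± 0.14 on day 2 (limma adjusted p = 0.00772 and 0.00405, 5 of 5 mice lower). None of 18 metalloproteinases, inhibitors and partners of Mmp9 was measured well enough.

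Likeness to other genes was taken as Pearson's r over the mice of all 4 groups, so shifts that genes share between groups enter it. The 3 highest were taken among 2586 to 3646 genes for each member. Genes also share arrays and normalization, and r is given as a description. Over deviations from group means, r for these pairs ran from 0.36 (Trem1 with Slfn4) to 0.92 (Mmp9 with Ccl6). Over 20 mice Csf3r was most like Pla2g7 (r = 0.92), followed by Selenon (0.91, 19 mice) and Txnip (0.90). Cyp4f18 was most like Trp53inp1 (0.93, 16 mice), Ankrd33b (0.92) and Txnip (0.92). Txnip was thus near the top for both members that stood below all other mice on day 5. Over deviations from group means its r was 0.61 with Csf3r and 0.79 with Cyp4f18. Lta4h was most like Rab9 (0.94), Ankrd24 (0.94) and Rnaset2b (0.93), each over 19 mice. Fpr2 was most like Chil1 (0.85, 20 mice), Irgm2 (0.84, 16 mice) and Inhba (0.80, 20 mice). Mmp9 was most like H2-Q10 (0.87, 19 mice), Ccl6 (0.87, 16 mice) and Birc3 (0.85, 19 mice). For Trem1 the genes were Hdhd3 (0.83), Nsmf (0.81) and Slfn4 (0.79), each over 15 mice. Clec4e was most like Mpp5 (0.78, 19 mice), Plscr2 (0.78, 17 mice) and Fuca1 (0.73, 20 mice). For Gda they were Rras2 (0.79, 16 mice), Gpr65 (0.78, 16 mice) and Sirpa (0.78, 15 mice).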

How the data were processed

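The 40 arrays of 20 mice came as 1 deposited table of log2 ratios, 1 value per probe and array, taken as sample (Cy5) over pool (Cy3) per the labels; for the scanner, background correction, normalization and the rule behind blanks, the sources used here say nothing. Values ran from -4.80 to 2.67 with array medians within 0.015 of 0, and 4079 to 7977 of 13443 probes had a value on an array. No 2 arrays correlated below -0.175, and those of a mouse correlated at 0.683 to 0.957. The log base stays unknown.

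Probes with 1 symbol in the platform annotation (10032, of which 10028 matched RefSeq) were named, and 170 with several symbols and 3241 without an entry were not. Arrays of a mouse were averaged, then probes of a gene. Features with values in at least 3 mice of every group were fitted in limma 3.58.1 (R 4.3.3), 1 mean per group over all 20 mice, with empirical Bayes moderation and Benjamini-Hochberg adjustment over 5297 features. No value was filled in, and the number of mice limits the precision. The labels number the mice as biological replicates. Deviations of same-numbered mice of different groups correlated at -0.39 to 0.33 over 30 pairs (median -0.0023, beside 0.0016 for other pairs). Yet 8 of 20 mice were closest to their own number. The labels do not say that numbers pair mice, so no block was used in the main fit. A replicate block was fitted as an alternative. On 38 arrays a set of probes shared 1 value within 0.001, as saturated spots would, and no member was among them. Only the limma fit was tested on simulated data, for day 5 against control, with values drawn independently from a normal distribution.

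Members, gene lists and motifs were chosen with earlier results of these data known. The text names all members, list genes among the 4 with the smallest p of those called (or the smallest p where none was), and the 3 genes most like a member, and a few further list genes (Cyp4f16, Tyrobp and the examples of late granule genes) named for their role after their values were seen. Hp was named because its day 2 call was lost on leaving out single mice. Members' differences are given without p-values because they were chosen on these contrasts. Alternatives were other filters, single probes, re-centring, quantile normalization, single arrays, arrays with mouse as a random block, saturated values left out, a replicate block, fits of 2 groups, trended robust moderation and leaving out each mouse.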

Additional observations from a re-analysis of the deposited data

Results flagged for a closer look

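Mmp9 in day 1 mouse 4 stood at 1.03, with the next day 1 mouse at 0.19, a gap of 0.774 of the range of the group, above Dixon's critical value of 0.71 for 5 mice. It was 1 of 29 sets of a member and a group tested, and chance gives about 1 in 20. Csf3r was above the control mean in all day 1 mice and below it in all day 5 mice, and the means of those days differed by -0.98. Lta4h was below the control mean in all mice of days 1 and 2 and above it in all day 5 mice, by 1.505 for day 5 over day 1 and 1.41 for day 5 over day 2. These 3 opposite movements were found among the members' own values and were not tested as such.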

How the results depend on the processing

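Of 1452 values of the members under 32 alternatives, 1 moved by more than the SD between mice and no called difference changed sign. That one was Cyp4f18 on day 5 with quantile normalization (-1.82 in place of -2.32). Fpr2 and Mmp9 on day 1, Cyp4f18 and Gda on day 2 and Fpr2, Clec4e and Gda on day 5, none of them called, changed sign against control under 1 to 6 alternatives. The features called over the whole array numbered 1012, 1018 and 139 on days 1, 2 and 5 and 111, 1102 and 1341 for day 2 against 1, day 5 against 2 and day 5 against 1. With arrays as units and the mouse as a random block the count was 210 on day 5 and 241 for day 2 against 1, and with only the 2 groups in the fit the last was 65. Leaving out single mice gave 611 to 1313 on day 1, 592 to 1123 on day 2, 100 to 161 on day 5, 77 to 167 for day 2 against 1, 816 to 1211 for day 5 against 2 and 970 to 1574 for day 5 against 1, and 46 to 60 calls on list genes in place of 56. Counts outside 1.5 times were those without day 1 mouse 2 (641) or 3 (611), without day 2 mouse 1 (592) and without day 5 mouse 4 (167). These 4 fits tested 4859 to 5242 features in place of 5297, and the cause of the shifts was not tested. With the replicate block the counts were 986, 979 and 124 against control, 115, 1084 and 1295 between days and 55 for list genes; 8 of 20 mice were closest to their own number, and among the members' calls against control only that of Mmp9 on day 5 was lost (-0.93). It was also lost with the second arrays only (-0.78) and with only the 2 groups in the fit (-0.98). That last fit also ended the day 1 calls on Csf3r (0.41) and Clec4e (0.53) and gained that on Mmp9 on day 2 (-0.62). The day 1 call on Csf3r was lost with quantile normalization too (0.38), and that on Clec4e with the first arrays only (0.56). Mmp9 on day 2 was also called with the first arrays only (-0.76) and with the mouse as a random block (-0.62). Blank values limit Gda and Trem1 most, with 16 and 15 mice measured.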
